A study of Mus musculus with 2 samples.

Results

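Superoxide dismutases turn superoxide into hydrogen peroxide, and glutathione peroxidases and peroxiredoxins reduce hydrogen peroxide and lipid hydroperoxides. Their RNA was followed here through 10 genes of the mouse kidney: the glutathione peroxidases Gpx1, Gpx3 and Gpx4, the superoxide dismutases Sod1, Sod2 and Sod3, and the peroxiredoxins Prdx1, Prdx2, Prdx3 and Prdx5. The genes were taken by symbol, and all 10 were found among 43346 gene rows, with 36 transcript rows among 103639. Polyadenylated RNA came from kidney tissue of 1 adult female C57BL/6J mouse, an inbred strain, 10 weeks old, with no treatment or mutation named in the labels. The labels describe 2 libraries of that 1 tissue sample, called library 2 and library 1 here after their technical replicate numbers, and place the work on library 2 later. There is 1 group and no control, so every ratio below, given as library 2 over library 1, compares 2 libraries and not 2 conditions, and no p-value was computed.

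The families differ in where the reducing power comes from. Glutathione peroxidases draw on glutathione, and Gpx1, Gpx3 and Gpx4 carry selenocysteine, an amino acid read from a TGA codon that would otherwise stop translation. Peroxiredoxins use a reactive cysteine that thioredoxin renews. In the kidney the proximal tubule is known as the main source of the plasma enzyme Gpx3.

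The in-frame TGA is shown for the 3 glutathione peroxidases because it sets them apart from the other 7 genes, whose coding sequences held no stop codon before their end. Each line is 33 bases of the coding strand of the most abundant transcript, with the TGA in capitals. The TGA was codon 47 of Gpx1, codon 73 of Gpx3 and codon 73 of Gpx4, counted from the start codon.
Gpx1, chr9:108339436-108339468, plus strand: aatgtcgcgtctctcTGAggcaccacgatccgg
Gpx3, chr11:54907241-54907273, plus strand: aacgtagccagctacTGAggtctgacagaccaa
Gpx4, chr10:80054722-80054754, plus strand: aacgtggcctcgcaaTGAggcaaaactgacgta

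A second set of stretches shows how the coding sequences differ in base composition, which is taken up again beside the ratios. Each line is the 60 bases of highest GC content within 1 coding exon of the most abundant transcript, with G and C in capitals. Gpx1 held the stretch of highest GC content among the 10 genes, at 80%, and Prdx1 the lowest, at 55%. Sod2 and Prdx2 are given because their order in GC content, 78.3% in Sod2 and 65% in Prdx2, is the reverse of their order in the ratios below. The median over 10378 genes was 70%.
Gpx1, chr9:108339358-108339417, plus strand: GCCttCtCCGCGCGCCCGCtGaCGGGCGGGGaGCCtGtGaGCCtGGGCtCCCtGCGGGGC
Sod2, chr17:13008186-13008245, plus strand: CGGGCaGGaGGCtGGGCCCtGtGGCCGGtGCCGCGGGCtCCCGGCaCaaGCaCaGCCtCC
Prdx2, chr8:84970243-84970302, plus strand: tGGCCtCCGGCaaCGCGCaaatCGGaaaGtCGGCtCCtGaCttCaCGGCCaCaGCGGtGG
Prdx1, chr4:116693775-116693834, plus strand: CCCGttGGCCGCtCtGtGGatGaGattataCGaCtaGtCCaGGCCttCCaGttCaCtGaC
Sequences and coordinates are from GENCODE M21 on mm10.

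Library 2 held 20720537 expected counts and library 1 held 28263730. Mitochondrially encoded genes and their nuclear copies took 36.5% of TPM (a level per transcript length that sums to the same total in each library) in library 2 and 74.5% in library 1, which lowers the TPM of every other gene more in library 1. Of 12 kidney epithelium markers, 11 reached TPM 1 in both libraries, with summed levels of 8313 TPM in library 2, against 1173 TPM in library 1. Summed levels of other cell types were also higher in library 2: 307 TPM for endothelium in library 2, against 95.2 TPM in library 1, 216 TPM for smooth muscle and stroma, against 54.9 TPM in library 1, 104 TPM for fat, against 24.6 TPM in library 1, 78.3 TPM for macrophages, against 7.6 TPM in library 1, and 1.6 TPM for adrenal tissue, against 0.5 TPM in library 1. Their part in the ratios below was not tested. In whole tissue, fewer cells of a type and less RNA per cell cannot be told apart.

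Gpx3 was the most abundant of the 10 genes in both libraries. With the rule given below, 7 of the 10 were called higher in library 2, where 37.4% of 15553 genes tested were. The 10 genes together held 26867 TPM in library 2, against 4433 TPM in library 1, which was 2.69% of all TPM in library 2 and 0.443% in library 1. The 3 glutathione peroxidases made up 85.2% of that sum in library 2 and 65.5% in library 1, the 4 peroxiredoxins 10.6% in library 2 and 30.9% in library 1, and the 3 superoxide dismutases 4.2% in library 2 and 3.6% in library 1. Gpx3 alone set most of these shares. Without it, the superoxide dismutases made up 16.5% of the remaining sum in library 2 and 10.2% in library 1, the peroxiredoxins 41.6% in library 2 and 86.9% in library 1, and Gpx1 and Gpx4 together 41.9% in library 2 and 2.9% in library 1. The summed TPM of the peroxiredoxins was higher in library 2 although their share was smaller, at 2849 TPM in library 2, against 1371 TPM in library 1. That direction depended on the mitochondrial share. Without mitochondrial genes and their copies, the peroxiredoxins held 0.45% of the remaining TPM in library 2 and 0.54% in library 1. All 10 genes then held 4.23% in library 2 and 1.74% in library 1.

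**Figure D1:**
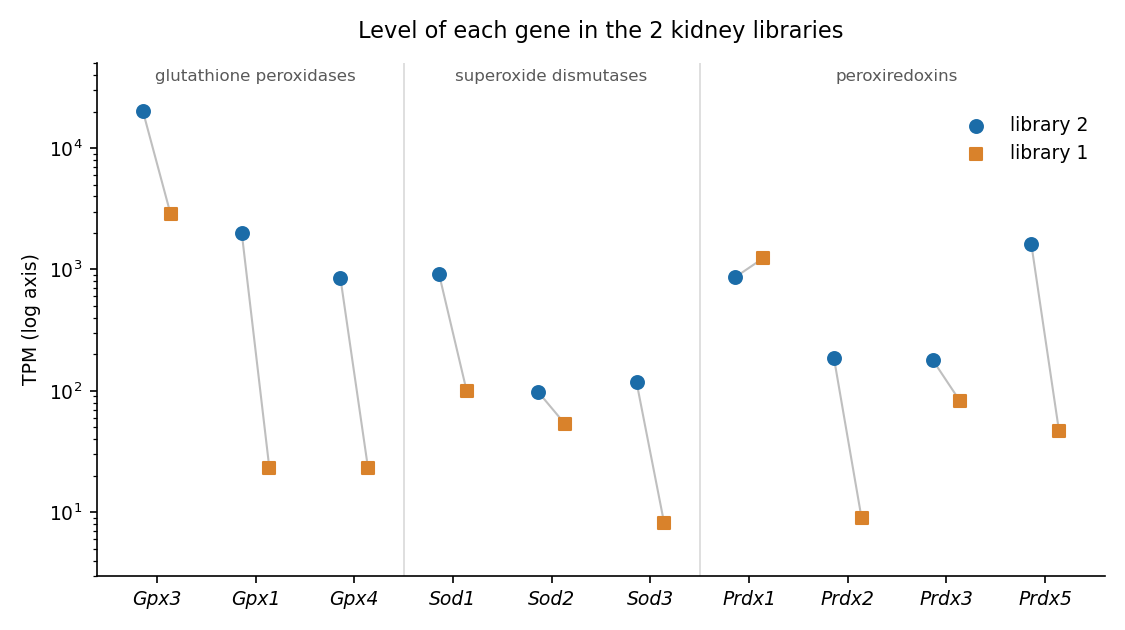
Level of each gene in TPM on a log axis, with library 2 as circles and library 1 as squares, joined for each gene. Gpx3 is at the top in both libraries, and Prdx1 is the 1 gene whose TPM, with mitochondrial genes included in the total, was lower in library 2.

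Ratios were computed from expected counts scaled by TMM (a scaling that takes most genes as unchanged), and a gene was called at an absolute log2 ratio of 1 or more. By this rule 7 genes were called higher in library 2 (Gpx1, Gpx3, Gpx4, Sod1, Sod3, Prdx2 and Prdx5), where 37.4% of 15553 genes tested were called higher. Prdx1 alone was called lower, where 25.0% of genes tested were. Sod2 and Prdx3 were not called. The median log2 ratio was 2.32 over the 10 genes and 0.17 over all genes tested. Scaling by total counts raised the ratios by 0.85 at the median over all genes, and then 7821 genes were called higher and 847 lower, against 5810 and 3887 under TMM. The 7 higher calls held under all 4 scalings tried, and Prdx1 had a log2 ratio of -0.37 by total counts and was not called.

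Among the glutathione peroxidases, Gpx3 (chr11:54902453-54910377, plus strand), the secreted enzyme, had 20021 TPM in library 2, against 2855 TPM in library 1. Its mean was 11438 ± 12138 TPM (SD, n = 2 technical libraries). It ranked second in both libraries among genes other than mitochondrial ones and their copies. From 461153 counts in library 2 and 81541 in library 1, its log2 ratio was 2.09 (95% interval 2.08 to 2.10, for counting error only, as for all such intervals here). Its large count makes this interval narrow, while its SD over the libraries exceeded its mean.

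Gpx1 (chr9:108338903-108340343, plus strand), which reduces hydrogen peroxide in the cytosol and mitochondria, had 2015 TPM in library 2, against 23.2 TPM in library 1. Its mean of 1019 ± 1408 TPM (SD, n = 2) stands for neither library. The counts of 21690 in library 2 and 631 in library 1 gave a log2 ratio of 4.70 (4.58 to 4.81), a fold of 25.9. Its rank was 14 in library 2 and 1942 in library 1.

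Gpx4 (chr10:80047166-80056439, plus strand), which reduces phospholipid hydroperoxides in membranes and holds back ferroptosis, had 853 TPM in library 2, against 23.1 TPM in library 1 (mean 438 ± 587, SD, n = 2). Its counts were 10232 in library 2 and 287 in library 1, with a log2 ratio of 4.75 (4.58 to 4.92). In library 1 Gpx4 and Gpx1 stood at almost the same level, 1.01 times for Gpx1 over Gpx4, against 2.36 times in library 2. Gpx3 was 9.94 times Gpx1 in library 2 and 123 times Gpx1 in library 1.

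The 3 superoxide dismutases work in different places and did not move alike. Sod1 (chr16:90220754-90226329, plus strand), the copper and zinc enzyme of the cytosol, had 913 TPM in library 2, against 99.3 TPM in library 1 (mean 506 ± 575, SD, n = 2). Its log2 ratio was 1.89 (1.81 to 1.98), from 6833 counts in library 2 and 1390 in library 1. It led the family in both libraries.

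Sod2 (chr17:13006846-13040063, plus strand), the manganese enzyme of the mitochondrial matrix, had 98.7 TPM in library 2, against 52.8 TPM in library 1 (mean 75.8 ± 32.5, SD, n = 2). Its counts were almost equal, 5906 in library 2 and 5923 in library 1, and its log2 ratio was -0.41 (-0.46 to -0.36) under TMM but 0.44 by total counts. The direction of Sod2 therefore depended on the scaling. Sod3 (chr5:52363791-52371418, plus strand), the secreted copper and zinc enzyme, had 118 TPM in library 2, against 8.15 TPM in library 1 (mean 63.2 ± 77.8, SD, n = 2). Its counts of 6575 in library 2 and 850 in library 1 gave a log2 ratio of 2.54 (2.44 to 2.65). Sod2 was 0.835 times Sod3 in library 2 and 6.48 times Sod3 in library 1, so that the order of this pair was the other way round between the libraries.

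The log2 ratios of the peroxiredoxins spread more widely than those of the other families. Prdx1 (chr4:116685544-116700822, plus strand), of the cytosol, had 863 TPM in library 2, against 1233 TPM in library 1, and its mean of 1048 ± 261 TPM (SD, n = 2) had the smallest SD relative to the mean of the 10. Its counts were 15366 in library 2 and 27000 in library 1; of the other 9 genes, Sod2 alone also had more counts in library 1, by a small margin. The log2 ratio was -1.22 (-1.25 to -1.19). Its rank was 78 in library 2 and 7 in library 1.

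Prdx2 (chr8:84969587-84974834, plus strand), a cytosolic peroxiredoxin that is abundant in red blood cells, had 187 TPM in library 2, against 8.96 TPM in library 1 (mean 98.0 ± 126, SD, n = 2). The counts were 3565 in library 2 and 300 in library 1, with a log2 ratio of 3.16 (2.99 to 3.34). All 6 red blood cell markers were also called higher in library 2, where 37.4% of all genes tested were, and none was at 0, with summed levels of 2451 TPM in library 2, against 45.2 TPM in library 1, and a median GC content of 55.5%. With the trend of the ratio with GC content removed, as described below, 3 of the 5 markers with a GC value lay at 1.75 or more (Hba-a1, Hba-a2 and Hbb-bt), while Alas2 was at -0.05 and Slc4a1 at -0.75; Prdx2 was at 2.80. The part of red blood cells in the Prdx2 ratio was not tested.

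Prdx3 (chr19:60864051-60874556, minus strand), of the mitochondrial matrix, had 180 TPM in library 2, against 81.7 TPM in library 1 (mean 131 ± 69.6, SD, n = 2). The counts were 3817 in library 2 and 3244 in library 1, and the log2 ratio was -0.17 (-0.24 to -0.10) under TMM, 0.02 by total counts without mitochondrial genes and copies and 0.68 by total counts. Prdx3 and Sod2, both of the mitochondrial matrix, were the pair not called, and Prdx3 was 1.82 times Sod2 in library 2 and 1.55 times Sod2 in library 1.

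Prdx5 (chr19:6906697-6910106, minus strand), found in mitochondria, peroxisomes and the cytosol, had 1618 TPM in library 2, against 47.0 TPM in library 1 (mean 833 ± 1111, SD, n = 2). Its counts were 18824 in library 2 and 517 in library 1, and its log2 ratio of 4.78 (4.65 to 4.91) was the highest of the 10. Prdx1 was 0.534 times Prdx5 in library 2 and 26.2 times Prdx5 in library 1.

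The order of levels was Gpx3, Gpx1, Prdx5, Sod1, Prdx1, Gpx4, Prdx2, Prdx3, Sod3 and Sod2 in library 2, and Gpx3, Prdx1, Sod1, Prdx3, Sod2, Prdx5, Gpx1, Gpx4, Prdx2 and Sod3 in library 1. Of 45 gene pairs, 30 stood the same way round in both libraries and 15 the other way round. For 15 pairs the ranges over the 2 libraries did not overlap. Within a library, the deposited intervals, which belong to the posterior mean TPM, overlapped between neighbours for Prdx1 and Gpx4 and for Prdx2 and Prdx3 in library 2, and for Gpx1 and Gpx4 and for Prdx2 and Sod3 in library 1.

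Of the protein-coding genes, the one nearest to Prdx1 in its pair of log2(TPM + 1) levels was Chpt1, at a distance of 0.33, with 728 TPM in library 2, against 1061 TPM in library 1. Ass1 was nearest to Gpx1, at a distance of 0.68, with 1278 TPM in library 2, against 26.5 TPM in library 1. These distances rest on 2 libraries.

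The libraries also differed in which transcript of a gene held the largest share. Of the 10 genes, 6 had 2 or more transcript rows, and in 5 of them another transcript led in library 2 than in library 1 (Gpx1, Gpx3, Gpx4, Prdx2 and Prdx5). The same was seen in 30.3% of 6040 genes with 2 or more transcripts and at least 100 counts in each library. Shares from the posterior means gave the same 5 genes.

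Gpx3-201, of 1594 bases, held 99.5% of Gpx3 in library 2 and 37.7% in library 1, and Gpx3-202, of 829 bases, held 0.07% in library 2 and 62.2% in library 1. Gpx3-202 had 150 expected counts in library 2 and 34895 in library 1, while the whole gene had more counts in library 2. The transcripts shared 706 bases, and Gpx3-202 had 123 bases of its own, of 50.4% GC, against 888 bases of 56.5% GC particular to Gpx3-201.

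For Gpx4, the protein-coding Gpx4-202 held 83.5% in library 2 and 2.33% in library 1, and Gpx4-205, a processed transcript with no annotated coding sequence, held 0.06% in library 2 and 66.3% in library 1. The library 1 share rests on 153 expected counts. For Prdx5, Prdx5-201 held 39.3% in library 2 and 1.35% in library 1, and the shorter Prdx5-204, whose 501 bases all lie within Prdx5-201, held 24.1% in library 2 and 87.3% in library 1.

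Gpx1 went the other way in length: Gpx1-201, of 1072 bases, held 39.1% in library 2 and 99.8% in library 1, and Gpx1-204, of 653 bases, held 39.9% in library 2 and was listed at 0 in library 1. Prdx2-201 held 75.2% in library 2 and 20.7% in library 1, and Prdx2-208, with 1 base of its own, was listed at 0 in library 2 and held 68.0% in library 1 from 185 expected counts. Prdx1-205 led in both, with 55.7% in library 2 and 82.0% in library 1; its annotated coding sequence ends without a stop codon. Where the leading transcript differed and GC content was known, that of library 2 had the higher GC content in 82.2% of 1661 genes, but in 2 of these 5 (Gpx3 and Prdx5).

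**Figure D2:**
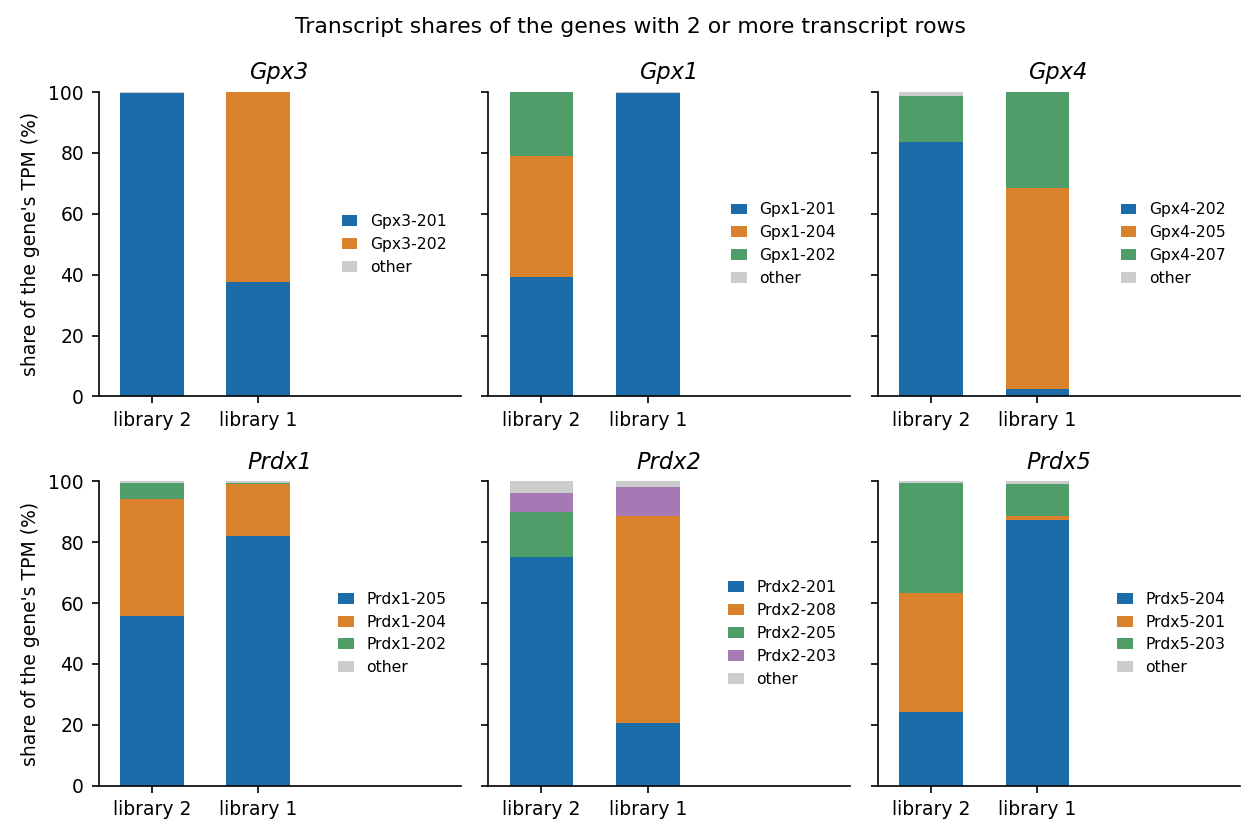
Share of each transcript in its gene, in percent of the gene's TPM, with library 2 left of library 1 in each panel. The leading transcript changes between the bars in 5 panels and stays Prdx1-205 in the Prdx1 panel.

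The ratios followed the GC content of the transcripts. Across 11092 genes with at least 100 counts, the Spearman correlation between the GC content of the most abundant transcript and the log2 ratio was 0.918, and with transcript length it was -0.249. Across the 9 genes of the set with a GC value it was 0.833 with GC content. Across all 10 genes, Sod2 included, it was -0.04 with length. These correlations are across genes of the same 2 libraries, and genes are not independent replicates. Median log2 ratios over all genes were -1.31 at 40 to 45% GC and 3.57 at 55 to 60% GC.

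Among these 9 genes, the 3 of highest GC content, Gpx4 at 58.8%, Prdx5 at 58.3% and Gpx1 at 57.2%, were the 3 with the highest ratios, and the 2 of lowest GC content, Prdx1 at 43.5% and Prdx3 at 45.5%, had the lowest. Prdx1 lay on the trend, with a log2 ratio of -1.22 against a median of -1.21 over 977 genes within 1 point of its GC content. Sod2 had no value because its transcript is 3824 bases long in the tables and 5861 bases in GENCODE M21; that longer version has 42.2% GC.

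Prdx2, at 50.4% GC, stood farthest from the trend, with a log2 ratio of 3.16 where 1156 genes within 1 point of its GC content had a median of 0.33 and quartiles of -0.11 and 0.85. Gpx3, at 56.0%, lay below it, with 2.09 where 1070 genes had a median of 3.02 and a lower quartile of 2.06. With the trend removed, the log2 ratios were 2.80 for Prdx2, 1.31 for Sod3 and 1.06 for Gpx1, which stayed called higher; they were 0.30 for Gpx4, 0.45 for Sod1, 0.57 for Prdx5, 0.69 for Prdx3 and -0.03 for Prdx1, and -0.92 for Gpx3, whose direction was reversed. GC content was not varied apart from the library, so its part in the ratio of any single gene cannot be told apart from other differences between the libraries.

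**Figure D3:**
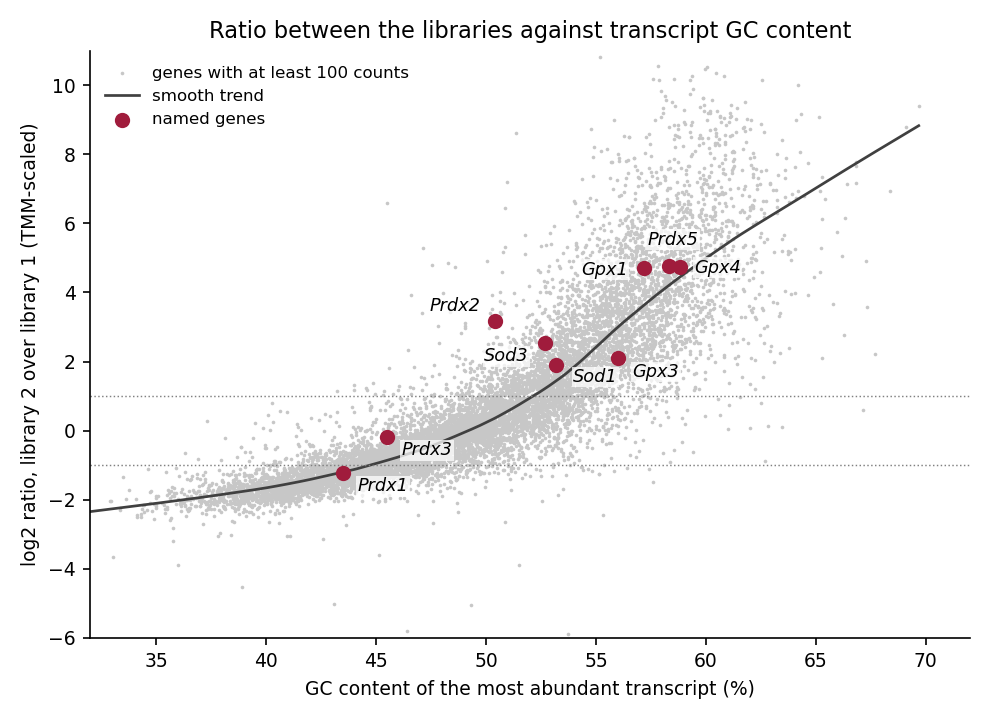
The log2 ratio of library 2 over library 1 against the GC content of the most abundant transcript, with 1 grey dot for each of 11092 genes (17 lie outside the plotted range), a smooth trend, and the 9 genes of the set with a GC value in red. Dotted lines mark log2 ratios of 1 and -1; Prdx2 lies above the cloud's centre and Gpx3 below it.

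Composition by region of the transcript was read next. The coding sequence had 63.1% GC in Sod3, 58.6% in Gpx1, 56.9% in Prdx5, 54.7% in Gpx4, 54.3% in Prdx2, 54.0% in Sod2, 53.7% in Gpx3, 51.6% in Sod1, 48.4% in Prdx3 and 42.2% in Prdx1. Its Spearman correlation with the log2 ratio was 0.77 over the 10 genes, and that of the 60-base stretch of highest GC content was 0.353. Sod2 and Prdx2 stood apart from that order. Sod2 had the stretch shown above and a log2 ratio below 0 under TMM, though 0.44 by total counts. Prdx2 had a less GC-rich stretch and a log2 ratio above 3.

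The 3' untranslated region had a higher GC content than the coding sequence in Gpx3 (56.1%) and Gpx4 (62.4%) and a lower one in the other 6 genes with a value, at 44.9% in Prdx2 and 49.1% in Sod3. Over these 8 genes the log2 ratio with the GC trend removed, its sign kept, was higher where the coding sequence exceeded the untranslated region by more. The Spearman correlation was 0.833. Over 10072 genes with such a region the same correlation was -0.17, so the order seen in the 8 genes was not that of genes at large; this comparison was chosen after the values were seen.

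Neighbouring and similar genes bear on a few of the counts. Exons on the opposite strand overlap Prdx2 over 173 bases (Junb) and 177 bases (Rnaseh2a), and Prdx5 over 409 bases (Trmt112). Junb had 460 counts in library 2 and 3 in library 1, and Rnaseh2a had 209 in library 2 and 13 in library 1. Trmt112 had 500 counts in library 2 and 63 in library 1. Whether strand was used in counting is not stated, so reads of these overlaps cannot be assigned to either gene with certainty. Processed pseudogenes with at least 95% identity over at least 50% of the transcript were found for Prdx1, Prdx2 and Sod1. The 2 of Prdx1 held 12.0 counts together in library 2 and 45 in library 1, and adding such rows changed no call.

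Related genes, which supply these enzymes, act beside them, regulate them or make superoxide or peroxide, were taken from 8 lists of 59 genes in all. Of the 53 with at least 10 counts over both libraries, 17 were called higher in library 2, 8 lower and 28 not called, where 37.4% of all genes tested were higher and 25.0% lower; the median log2 ratio was 0.29, against 0.17 over all genes tested. Library scaling moved this split: by total counts 29 were higher and 1 lower (Nox4), where 50.3% of all genes tested were higher and 5.4% lower. Without mitochondrial genes and copies in the totals, 18 were higher and 4 lower, where 39.7% of all genes were higher and 19.8% lower. With the GC trend removed, 11 of 47 were higher and 1 was lower, where 13.4% of 11092 genes were higher and 10.7% lower. Total counts add about 0.85 to each log2 ratio given for these genes, which turns the smaller negative values positive.

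Among the other glutathione peroxidases, 1 of 3 tested was higher, 1 lower and 1 not called. Gpx6 had 74.1 TPM in library 2, against 28.0 TPM in library 1 (log2 ratio 0.11), and Gpx8, of the endoplasmic reticulum, had 18.0 TPM in library 2, against 17.5 TPM in library 1 (-1.26). Of the other peroxiredoxins and catalase, none of 3 tested was called: Cat, the peroxisomal enzyme that splits hydrogen peroxide, had 461 TPM in library 2, against 277 TPM in library 1 (-0.57). Prdx6 had 150 TPM in library 2, against 49.4 TPM in library 1 (0.45). Prdx4, of the endoplasmic reticulum, had 29.6 TPM in library 2, against 16.8 TPM in library 1 (-0.49). Catalase stood above 4 of the 10 genes in library 2 and above 8 of the 10 in library 1.

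Of 5 genes that supply metals to the superoxide dismutases, 2 were higher, 2 lower and 1 not called. Ccs, the chaperone that loads copper into Sod1, had 1661 counts in library 2 and 3 in library 1, a ratio of 418 (143 to 2028). Atox1, a copper chaperone of the secretory route, had 1480 counts in library 2 and 2 in library 1, a ratio of 558 (154 to 4616). Both ratios exceeded the 3.71-fold of Sod1 and the 5.84-fold of Sod3, and both rest on a handful of counts in library 1. Their transcripts had 56.5% GC for Ccs and 59.3% for Atox1. With the GC trend removed, the log2 ratios were still 5.23 for Ccs and 4.16 for Atox1, and the cause was not tested. Slc39a8, a manganese and zinc importer, had 34.9 TPM in library 2, against 28.3 TPM in library 1 (-1.01).

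In the thioredoxin system, which renews the peroxiredoxins, 3 of 12 genes were higher, none lower and 9 not called. Txn1, the cytosolic thioredoxin, had 287 TPM in library 2, against 132 TPM in library 1 (log2 ratio -0.19 under TMM). Txnip, which binds and inhibits thioredoxin, had 312 TPM in library 2, against 72.6 TPM in library 1 (0.78). Txn2, the mitochondrial thioredoxin, had 212 TPM in library 2, against 17.8 TPM in library 1 (2.31), and its reductase Txnrd2 had 23.3 TPM in library 2, against 0.36 TPM in library 1 (4.85). Prdx3, their partner in the mitochondrion, was not called. GC content was 55.9% for Txn2, 55.7% for Txnrd2 and 45.5% for Prdx3. With the GC trend removed, the log2 ratios were -0.65 for Txn2, 2.02 for Txnrd2 and 0.69 for Prdx3, so Txn2 then stood below Prdx3.

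Of 6 genes of glutathione synthesis and recycling, 2 were higher, 1 lower and 3 not called. Ggt1, the brush border enzyme that breaks down glutathione, had 556 TPM in library 2, against 5.17 TPM in library 1 (6.39). Gclm, a subunit of the rate-limiting synthesis enzyme, had 219 TPM in library 2, against 185 TPM in library 1 (-1.29), and Gclc, the catalytic subunit, had 135 TPM in library 2, against 91.5 TPM in library 1 (-0.75). Gss, which completes the synthesis, had 163 TPM in library 2, against 7.89 TPM in library 1 (3.04). Of 10 genes of selenoprotein synthesis and selenium supply, 3 were higher, 1 lower and 6 not called. Selenop, the plasma carrier of selenium, had 854 TPM in library 2, against 641 TPM in library 1 (-1.13), and Lrp2, its receptor on proximal tubule cells, had 235 TPM in library 2, against 114 TPM in library 1 (-0.27). Sephs2, which makes selenophosphate, had 174 TPM in library 2, against 39.0 TPM in library 1 (0.85).

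Of 7 genes of NADPH supply, 4 were higher, 1 lower and 2 not called. Idh2, of mitochondria, had 386 TPM in library 2, against 8.80 TPM in library 1 (4.14), and Idh1, of the cytosol, had 439 TPM in library 2, against 399 TPM in library 1 (-1.17). Me1, the cytosolic malic enzyme, had 138 TPM in library 2, against 93.2 TPM in library 1 (-0.97). Of 7 tested genes that make superoxide or peroxide, 2 were higher, 2 lower and 3 not called. Hao2, a peroxisomal hydroxyacid oxidase, had 680 TPM in library 2, against 442 TPM in library 1 (-0.69). Nox4, the main NADPH oxidase of kidney tubules, had 218 TPM in library 2, against 369 TPM in library 1 (-2.08), and its partner subunit Cyba had 3916 counts in library 2 and 3 in library 1, a ratio of 985 (337 to 4779). These 2 genes of 1 enzyme had 40.4% GC for Nox4 and 59.3% for Cyba. With the GC trend removed, the log2 ratios were -0.47 for Nox4 and 5.09 for Cyba, the latter from 3 counts in library 1. The cause was not tested.

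**Figure D4:**
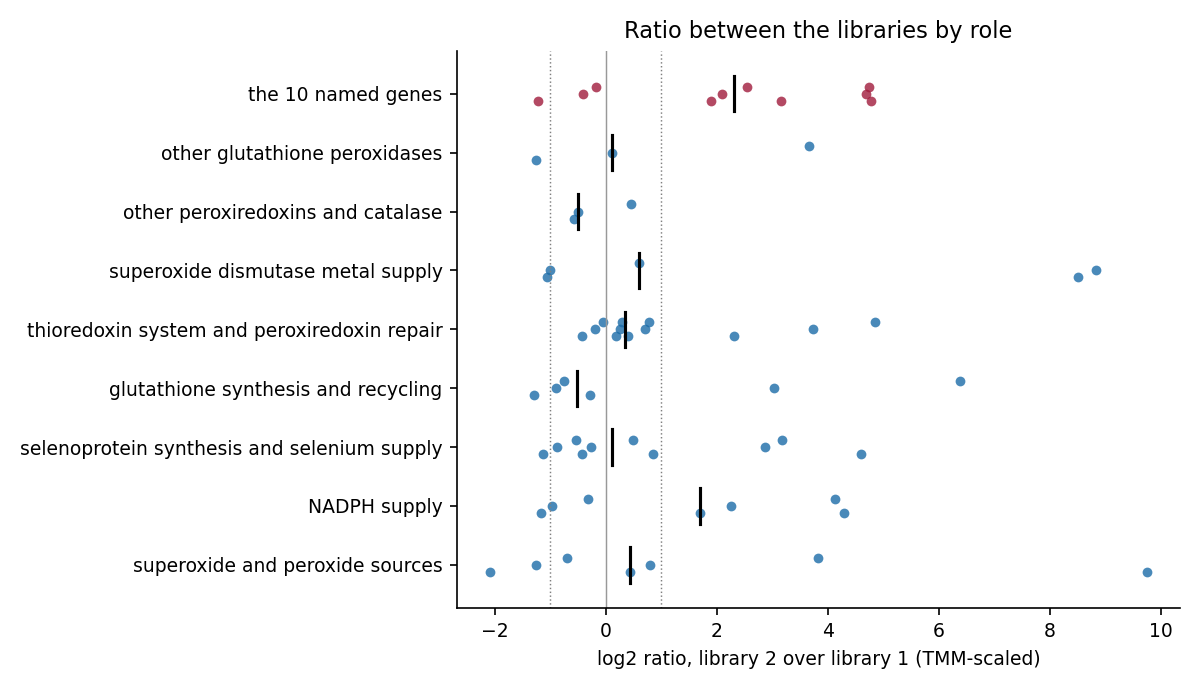
The log2 ratio of library 2 over library 1 for the 10 named genes (top row) and for each list of related genes. Each row has 1 point per gene with at least 10 counts (spread vertically only to keep points apart) and a black bar at the median. Dotted lines mark log2 ratios of 1 and -1; points lie on both sides of 0 in the top row and in all 8 lists.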

How the data were processed

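Values were made on mm10 with annotation release M4, per the text deposited beside the tables, with aligner, quantifier and the level of the TPM intervals not given in the sources used here. Expected counts (estimated reads per gene or transcript) were deposited unnormalized, per the file headers. TPM, a level per transcript length with an equal sum in both libraries, was deposited beside them. Transcript shares were deposited as a percent of the gene's TPM. Posterior means and interval bounds of TPM were deposited too, per the file headers. Per the labels, extraction used an RNeasy Lipid Tissue Mini Kit.

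Symbols, coordinates and sequences came from GENCODE M21 (mm10); 98.0% of rows matched by identifier. Expected counts were rounded and scaled by TMM (edgeR 4.0.16). With 1 library on each side no model could be fitted, so genes with at least 10 counts over both were called at an absolute log2 ratio of 1 or more (prior count 0.5), with exact (Clopper-Pearson) 95% intervals for counting error only. The calculation was tested on simulated data. GC content is that of the transcript of highest mean TPM, where its length was within 10% of that in M21, and the trend was a lowess fit with a span of 20% (statsmodels 0.14.6). Similar genes were found with blastn 2.17.0. The 10 genes, lists and rules were chosen with earlier results of these data known. Of each list of related genes, the 3 of highest mean TPM were named where they reached TPM 10 in a library. Txnrd2 and Gss, which also reached that level, were added after their values were seen. The genes of nearest levels are given for Prdx1 and Gpx1; 1 further result of that rule is not reported here.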

Additional observations from a re-analysis of the deposited data

How the results depend on the processing

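The 7 higher calls and the 1 lower call held with DESeq2 size factors, with other count filters, with a prior count of 2, with posterior mean counts and with similar genes added. With the GC trend removed, 3 of the 9 genes with a GC value were called higher and 0 lower, and of 11092 genes with a GC value and at least 100 counts 1488 were higher and 1184 lower, and Gpx3 was reversed at -0.92; the cause was not tested. With total counts, 0 of the 10 were called lower, and over all genes 847 were. No paired analysis was possible because there is 1 group of 2 technical libraries. Leaving out a library leaves the other's own value, as printed for each gene. The SD over libraries exceeded the mean TPM in 7 of the 10 genes. In TPM without mitochondrial genes and copies, Prdx1 was lower in library 2 (1360, against 4841 in library 1). So were Sod2 (155.5 in library 2, against 207.4 in library 1) and Prdx3 (283.8 in library 2, against 320.8 in library 1). Ccs, Atox1 and Cyba had 2 or 3 counts in library 1, so their ratios have wide counting intervals. Library 1 held more counts in total but had the smaller effective size under TMM, 21022865 against 27857236 in library 2. Mitochondrial genes and copies took 46.75% of its counts, against 15.73% in library 2. The libraries share 1 tissue sample, so variation between mice was not measured.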
